A study of Pardosa pseudoannulata with 6 samples.

Results

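The actins of the wolf spider Pardosa pseudoannulata, a hunting spider of rice fields, are described here as 10 assembled transcripts out of the 75542 in the deposited table. They were chosen by annotation: each is a cluster that the table matches to an actin itself in at least the Swissprot database, and proteins that only bind or modify actin were left out. The study injected double-stranded RNA directed at the F-actin gene into cadmium-exposed spiders, to ask which transcripts follow its knockdown by RNA interference. The 3 dsFactin libraries came from cadmium-treated individuals microinjected with that RNA, and the 3 dsNC libraries from cadmium-treated individuals microinjected with a control RNA. No untreated or uninjected group was analysed here, so cadmium and injection are shared by both groups. The labels give the material as "Individual", with no tissue, age, strain or sex, and name no batch. Nothing beyond that word says that replicates were separate animals, so the p-values cover only sample-to-sample spread, part or all of which may be technical.

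Actin is the globular protein that polymerises into filaments, and F-actin is the name of the filament rather than of a single gene. Animals usually carry several actin genes whose proteins are nearly identical. Some are built mainly into the thin filaments of muscle, where troponin and tropomyosin control their contact with myosin, and others form the cytoplasmic filaments of most cells. Because the proteins are so alike, a double-stranded RNA made from any actin can match others, and reads can be shared between transcripts. The labels do not give the injected sequence, and how reads were divided among the 10 actins is not stated in the labels or the table. The values of single actins are therefore uncertain, and which of them the RNA matched was not analysed here.

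The libraries were of similar depth, 16.2 to 17.95 M fragments in dsFactin and 15.8 to 17.65 M in dsNC, as read from the steps between low values. At that depth 3 fragments in a transcript of 1000 bases equal 0.233 to 0.276 FPKM, the unit of the table (fragments per kilobase of transcript, scaled to a common depth). Transcripts above 0 numbered 47167 to 55781 in dsFactin and 57714 to 61503 in dsNC. Over the 53182 transcripts tested, the median log2 difference, dsFactin minus dsNC, was -0.27. After rescaling the libraries by median ratios it was -0.09, over the 52164 transcripts that then passed the filter. The sum of 2119 clusters whose best nucleotide and protein matches both name Drosophila was 74.0 to 80.9 FPKM in dsFactin, and 565, 2205 and 13611 FPKM in dsNC libraries 1, 2 and 3.

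The 10 actins were sorted into a muscle-type transcript by the name of its matches, 4 cytoplasmic-type transcripts by their KEGG entry, and 5 others. Among the others, Cluster-8110.34222 also matched a cytoplasmic actin by name but had no KEGG entry. These types are names only. For Cluster-8110.34823, of cytoplasmic type by name, muscle transcripts were among the nearest profiles, as given below. In the authors' deposited table, Cluster-8110.35523 (1963 bases) matched Actin-87E with a Swissprot score of 1956, and its best nucleotide match was Drosophila Act57B. Both are muscle actins of the fruit fly. Its best protein match was actin-87E of another fly, Condylostylus longicornis, so these matches all name flies. The KEGG entry for beta and gamma actin, the cytoplasmic actins of vertebrates, was given to 4 transcripts. Of these, Cluster-8110.34823 (1029 bases) matched the cytoplasmic actin A3a of a moth, with a Swissprot score of 1387 in the authors' deposited table. Its best protein match was an A3a-like actin of the spider Uloborus diversus, and its best nucleotide match an actin mRNA of the spider Dolomedes sulfureus. The other 3 with that KEGG entry matched an actin of the brine shrimp Artemia called clone 403: Cluster-8110.34480 (1511 bases), Cluster-8110.34975 (1345 bases) and Cluster-8110.34334 (1832 bases). The best nucleotide match of Cluster-8110.34480 was the actin 5C of another wolf spider, Lycosa singoriensis, named after a cytoplasmic actin of the fly.

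The remaining matches had lower Swissprot scores than the transcripts above, and some were partial. Among those above, Cluster-8110.34823 (1387) and Cluster-8110.34975 (1527) scored below Cluster-8110.35523, Cluster-8110.34480 and Cluster-8110.34334 (1945 to 1957) in the authors' deposited table. Whether Cluster-8110.34823 or Cluster-8110.34975 is a complete transcript was not tested. Cluster-8110.34222 is 2548 bases long and matched a vertebrate cytoplasmic actin with a Swissprot score of 746 in the authors' deposited table. Cluster-8110.53255 is a piece of 377 bases that matched an actin fragment, and its best nucleotide match was a genomic sequence of Drosophila melanogaster. Cluster-8110.4076 (1222 bases) matched an actin-85C-like protein of a spider. The 2 longest, Cluster-8110.35699 (4572 bases) and Cluster-8110.23246 (4662 bases), had uncharacterized spider proteins as their best protein matches. For that pair the actin name rests on a Swissprot score of 391 each in the authors' deposited table, a yeast actin for the first and Actin-2 of Plasmodium for the second. All 10 carry the orthology group of actins and related proteins, which 13 clusters of the table carry.

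Mean levels in dsNC spread between 1.34 and 5273 FPKM. This scale corrects for length, and shared reads and short or partial clusters make the order between transcripts uncertain. In recovered fragments the A3a-like Cluster-8110.34823 was below Cluster-8110.34480 in dsNC too, at 50265 to 70127 against 76549 to 89518. The order below is by FPKM. In dsFactin the order of mean levels was Cluster-8110.34480, then the A3a-like Cluster-8110.34823, Cluster-8110.34975, Cluster-8110.34334, the Actin-87E-like Cluster-8110.35523, Cluster-8110.34222, Cluster-8110.53255, Cluster-8110.35699, Cluster-8110.23246 and Cluster-8110.4076. In dsNC the first pair was the other way round, with the A3a-like transcript at 4443 to 5949 FPKM above Cluster-8110.34480 at 4044 to 4335 FPKM, and the rest kept the same places. In dsFactin the libraries of 4 neighbouring pairs overlapped: Cluster-8110.34480 with the A3a-like transcript, the A3a-like transcript with Cluster-8110.34975, the Actin-87E-like transcript with Cluster-8110.34222, and Cluster-8110.35699 with Cluster-8110.23246. In dsNC no neighbours overlapped. The plot of levels by library shows 5 transcripts above 1000 FPKM on average in dsNC and 3 below 15 FPKM in every library.

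**Figure D1:**
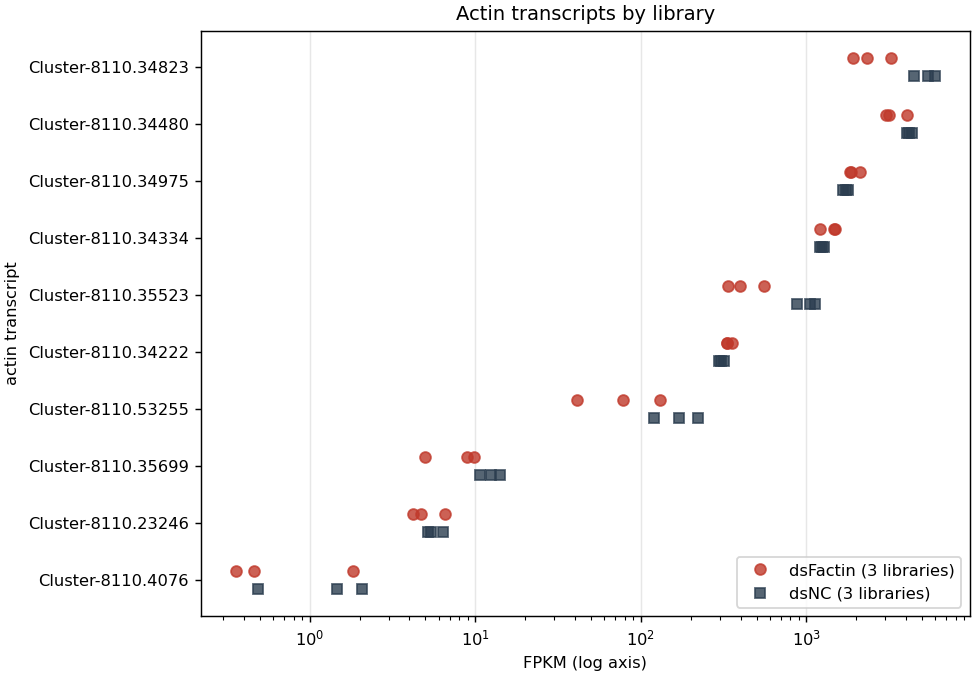
FPKM of the 10 actin transcripts on a log axis, with 1 point per library (circles, dsFactin; squares, dsNC; 3 libraries each) and transcripts ordered by their mean in dsNC. The circles of Cluster-8110.34823, Cluster-8110.35523, Cluster-8110.35699 and, by a narrow margin, Cluster-8110.34480 lie to the left of all their squares. Those of Cluster-8110.34975 and Cluster-8110.34222 lie to the right.

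The actin of muscle type by name was lower in dsFactin. The Actin-87E-like Cluster-8110.35523 stood at 338 FPKM in dsFactin library 1, 397 FPKM in library 2 and 558 FPKM in library 3. In dsNC libraries 1, 2 and 3 it stood at 879.85, 1119 and 1057 FPKM. The groups did not overlap, and dsFactin library 3 was the nearest to dsNC. The means were 431 ± 114 FPKM in dsFactin and 1019 ± 124 FPKM in dsNC (SD, n = 3 each), a ratio of 0.423. On the log2(FPKM + 1) scale the difference was -1.26 ± 0.21 (SE), with an unadjusted p = 0.000835 and a Benjamini-Hochberg adjusted p = 0.0675 over all tested transcripts in limma. It therefore missed the threshold of 0.05. It reached it when testing was limited to transcripts averaging 5 FPKM or more (adjusted p = 0.0384 in limma), with array weights (adjusted p = 0.0478) and with limma-voom on recovered fragments (adjusted p = 0.0144). After median-ratio rescaling the difference was -0.94.

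The A3a-like transcript, which matched a cytoplasmic actin, was lower by a similar factor. Cluster-8110.34823 had 1906, 2321 and 3221 FPKM in dsFactin libraries 1, 2 and 3, against 4443, 5949 and 5426 FPKM in dsNC libraries 1, 2 and 3. No dsFactin library reached the lowest dsNC library, and library 3 was again the highest of dsFactin. Behind these values stood 25551 to 37776 recovered fragments in dsFactin and 50265 to 70127 in dsNC. The means were 2482 ± 672 FPKM in dsFactin and 5273 ± 764 FPKM in dsNC, a ratio of 0.471. The log2 difference was -1.11 ± 0.24 (SE), with an unadjusted p = 0.00305 and an adjusted p = 0.0911 in limma. The adjusted p was 0.0481 in limma among transcripts averaging 5 FPKM or more, and 0.0243 with limma-voom, and the rescaled difference was -0.78. Expressed within a library, the A3a-like transcript was 5.64, 5.84 and 5.77 times the Actin-87E-like transcript in dsFactin and 5.05, 5.31 and 5.14 times in dsNC.

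The clone 403 transcripts, with best matches among spider and brine shrimp actins, lay close to dsNC. Cluster-8110.34480 had 3014, 3145 and 4034 FPKM in dsFactin libraries 1, 2 and 3, against 4044, 4335 and 4178 FPKM in dsNC. The groups touched without overlapping, at 4034 FPKM in dsFactin library 3 and 4044 FPKM in dsNC library 1. Its log2 difference was -0.31 ± 0.17 (SE, adjusted p = 0.375, limma), near the median of all tested transcripts, and it was 0.015 after median-ratio rescaling.

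Cluster-8110.34975 had 1826, 1861 and 2107 FPKM in dsFactin, against 1746, 1666 and 1786 FPKM in dsNC. All dsFactin libraries lay above all dsNC libraries, by 0.15 ± 0.13 on the log2 scale (SE, adjusted p = 0.553, limma). Cluster-8110.34334 had 1212, 1478 and 1466 FPKM in dsFactin, against 1281, 1246 and 1209 FPKM in dsNC. Here the groups overlapped through dsFactin library 1, and the log2 difference was 0.15 ± 0.14 (SE, adjusted p = 0.582, limma). Cluster-8110.34222, the long transcript with a partial match to vertebrate cytoplasmic actin, had 331, 332 and 358 FPKM in dsFactin, against 305, 295 and 316 FPKM in dsNC. The groups did not overlap, with dsFactin higher by 0.15 ± 0.10 on the log2 scale (SE, adjusted p = 0.467, limma). After median-ratio rescaling each of the 3 differed by 0.48. In all 6 libraries Cluster-8110.34975 was 5.52 to 5.89 times Cluster-8110.34222; whether that pair are pieces of a single transcript was not tested.

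The remaining 4 actins were at low levels or short. The 377-base Cluster-8110.53255 had 40.9, 77.6 and 131 FPKM in dsFactin libraries 1, 2 and 3, against 169, 221 and 120.03 FPKM in dsNC. The groups overlapped, since dsNC library 3 lay below dsFactin library 3. The log2 difference was -1.13 ± 0.44 (SE, adjusted p = 0.233, limma), from 71 to 159 recovered fragments in dsFactin and 175 to 261 in dsNC. Without dsFactin library 1 it was -0.71, and without dsFactin library 3 it was -1.53.

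The long Cluster-8110.35699 had 9.81, 8.86 and 5.0 FPKM in dsFactin, against 12.5, 14.1 and 10.7 FPKM in dsNC. It was lower in every dsFactin library, and here dsFactin library 3 was the lowest and not the highest; the log2 difference was -0.63 ± 0.26 (SE, adjusted p = 0.251, limma). Without dsFactin library 3 it was -0.37. Cluster-8110.23246 overlapped between the groups, at 4.68, 6.57 and 4.19 FPKM in dsFactin and 5.37, 6.35 and 5.17 FPKM in dsNC. Its log2 difference was -0.12 ± 0.20 (SE, adjusted p = 0.758, limma) and turned to 0.15 after median-ratio rescaling. Cluster-8110.4076, the actin-85C-like transcript, had 0.36, 0.46 and 1.82 FPKM in dsFactin, against 0.49, 2.07 and 1.47 FPKM in dsNC. These rest on 6 to 27 fragments in dsFactin and 7 to 31 in dsNC, and the libraries of each group spread widely, around a fitted difference of -0.34 ± 0.41 on the log2 scale (SE, adjusted p = 0.678, limma).

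Taking the 10 as a family, the dsFactin libraries lay wholly below dsNC for 4 actins, wholly above for 2, and overlapped for 4. Of all 53182 tested transcripts, 21.5% lay wholly below and 5.98% wholly above. In limma, 0 of the 10 actins passed in either direction, where 0.419% of all tested transcripts fell and 0.0771% rose. An unadjusted p under 0.05 was reached by 4 actins, all lower in dsFactin, against 19.3% of all tested transcripts (4.53% higher and 14.8% lower). Counts at the threshold depended on the method: 2 of 9 actins fell among transcripts averaging 5 FPKM or more, where 4.15% of all fell and 1.91% rose. With array weights 1 of 10 fell, where 1.01% of all fell and 0.312% rose, and with limma-voom 2 of 10 fell, where 1.65% of all fell and 0.613% rose. The median log2 difference of the 10 was -0.32, beside -0.27 over all tested transcripts. By sign, 7 were negative and 3 positive as deposited, and 5 were negative and 5 positive after median-ratio rescaling. The medians of all transcripts on the 2 scales were 0.18 apart, over unlike sets of 53182 and 52164. The A3a-like transcript moved from -1.11 to -0.78. The plot of differences shows both scales beside each other.

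**Figure D2:**
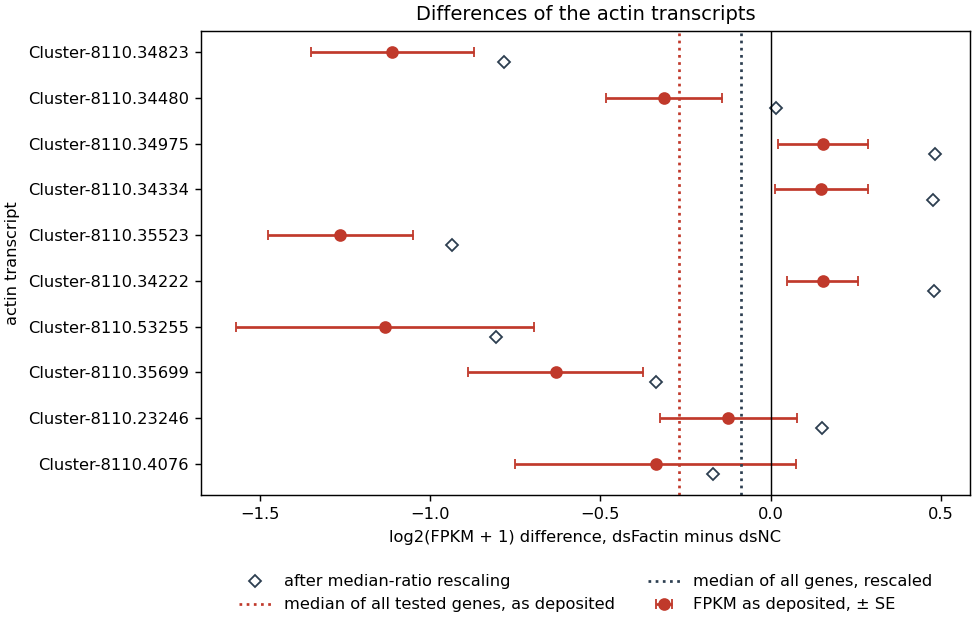
Log2(FPKM + 1) difference, dsFactin minus dsNC, of each actin transcript (filled points with standard errors from limma, 3 libraries a group) and after median-ratio rescaling (open diamonds); dotted lines mark the median of all tested transcripts on each scale. Cluster-8110.35523, Cluster-8110.34823 and Cluster-8110.53255 lie furthest left, at -1.26, -1.11 and -1.13, while Cluster-8110.34975, Cluster-8110.34334 and Cluster-8110.34222 lie right of zero at 0.15 each.

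Summed over the 10, actin made up 0.841, 0.799 and 1.06% of all FPKM in dsFactin libraries 1, 2 and 3, against 1.16, 1.34 and 1.21% in dsNC. The sum was 10065 ± 1646 FPKM in dsFactin and 13949.8 ± 994 FPKM in dsNC (SD, n = 3 each). Its log2 difference was -0.48, with a two-sided exact permutation p = 0.1, the smallest that 3 libraries against 3 allow, and p = 0.15 adjusted over 15 such comparisons. The groups did not overlap as deposited. They overlapped after median-ratio rescaling, where the difference was -0.15 (exact permutation p = 0.5). Without the 2 actins whose best nucleotide match is from Drosophila the sums were 9551 ± 1487 FPKM in dsFactin and 12761 ± 851 FPKM in dsNC.

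The make-up of that sum differed between the groups, and a share within a library is not touched by rescaling. The A3a-like transcript held 21.9, 24.1 and 27.1% of the summed actin FPKM in dsFactin libraries 1, 2 and 3, against 34.5, 40.0 and 38.5% in dsNC. Every dsFactin library lay below every dsNC library, with means of 24.4 ± 2.59% in dsFactin and 37.7 ± 2.87% in dsNC (exact permutation p = 0.1, adjusted p = 0.15). The Actin-87E-like transcript held 4.24 ± 0.410% in dsFactin and 7.28 ± 0.396% in dsNC, again without overlap.

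The other abundant actins held larger shares in dsFactin, and shares of a library are tied to each other. Cluster-8110.34480 held 33.8 ± 1.03% in dsFactin and 30.1 ± 1.17% in dsNC. Cluster-8110.34975 held 19.4 ± 1.65% in dsFactin and 12.5 ± 1.18% in dsNC, and Cluster-8110.34334 held 13.9 ± 1.51% and 8.96 ± 0.849%. Cluster-8110.34222 held 3.42 ± 0.400% in dsFactin and 2.20 ± 0.194% in dsNC. For these 4 all dsFactin libraries lay above all dsNC libraries, and the exact permutation p = 0.1 (adjusted p = 0.15) was the same for each. The shares of the other 4 overlapped between groups, with exact permutation p-values of 0.2 to 1.

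**Figure D3:**
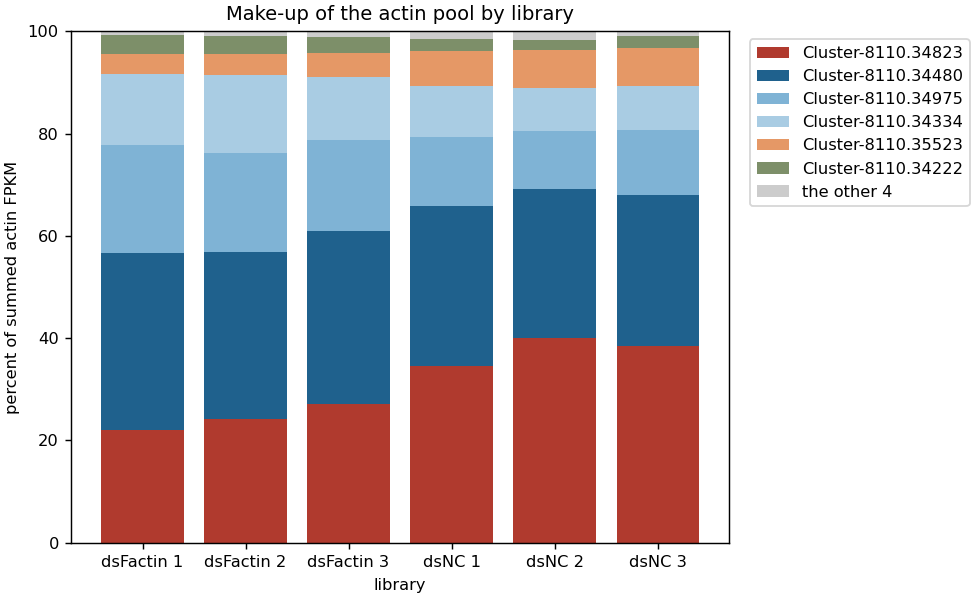
Percent of the summed FPKM of the 10 actin transcripts held by each of the 6 most abundant and by the other 4 together, in the 3 dsFactin and the 3 dsNC libraries (stacked bars). The lowest segment, Cluster-8110.34823, takes 21.9 to 27.1% in dsFactin libraries and 34.5 to 40.0% in dsNC libraries.

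Whether abundant actins differed in their change was read from their ratio within each library. The log2 ratio of the A3a-like transcript to Cluster-8110.34480 was -0.66, -0.44 and -0.32 in dsFactin libraries 1, 2 and 3, against 0.14, 0.46 and 0.38 in dsNC. By FPKM the A3a-like transcript was thus the lower of the pair in each dsFactin library and the higher in each dsNC library. The difference of -0.80 had an exact permutation p = 0.1 and an adjusted p = 0.15. Against Cluster-8110.34975 the log2 ratio was 0.06, 0.32 and 0.61 in dsFactin and 1.35, 1.84 and 1.60 in dsNC.

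Across libraries the actins fell into pairs and triplets of like profile, measured as the root mean square difference between log2 values centred on their mean over the 6 libraries. The A3a-like and Actin-87E-like transcripts were 0.0809 apart. Cluster-8110.34975, Cluster-8110.34334 and Cluster-8110.34222 were 0.0290 to 0.0932 apart. Cluster-8110.34480 was 0.422 from the A3a-like transcript. These distances describe 6 libraries and carry no test, and for the first pair every dsFactin value lay below every dsNC value.

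The 5 annotated transcripts nearest to the A3a-like actin, among 2039 with a mean of at least 50 FPKM, were 3 muscle filament proteins and 2 that handle calcium. They were a calcium-transporting ATPase of the sarcoplasmic reticulum type (Cluster-8110.35482, distance 0.109), which returns calcium to stores after contraction, and paramyosin (Cluster-8110.35845, 0.119), a core protein of invertebrate thick filaments. The others were a sarcoplasmic calcium-binding protein (Cluster-8110.35708, 0.135), troponin C (Cluster-8110.35522, 0.136) and troponin T (Cluster-8110.35305, 0.137). The median distance of the candidates was 0.736. The distance takes in the difference between the groups, so that median is no test of likeness. The log2 differences of the 5 ran between -1.32 and -1.12, beside -1.11 for the A3a-like actin. The A3a-like actin is of cytoplasmic type by name, while filament proteins of muscle were among these neighbours, and its type was not tested. The calcium-transporting ATPase, for example, had 433, 499.6 and 771 FPKM in dsFactin libraries 1, 2 and 3, against 1104, 1636 and 1326 FPKM in dsNC.

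Nearest to Cluster-8110.34480 was alpha-actinin (Cluster-8110.34616, distance 0.0598), which crosslinks actin filaments. It was followed by an acetoacetyl-CoA synthetase-like transcript (Cluster-8110.35357, 0.0615), a cytoplasmic aspartate aminotransferase (Cluster-8110.32056, 0.0654), a calmodulin-like transcript (Cluster-8110.35831, 0.0675) and the serine proteinase stubble (Cluster-8110.32762, 0.0684), beside a median of 0.378. Alpha-actinin had 209, 208 and 255 FPKM in dsFactin and 255, 274 and 256 FPKM in dsNC, so its groups were close, as were those of Cluster-8110.34480. The plot of centred profiles shows these neighbours around each actin.

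**Figure D4:**
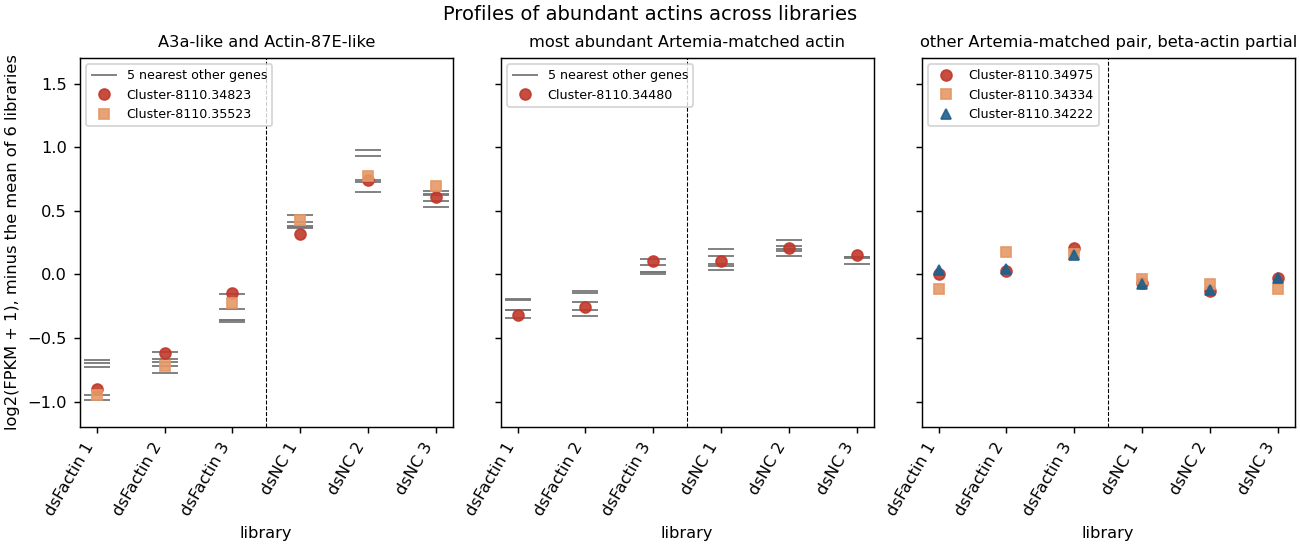
Log2(FPKM + 1) minus its mean over the 6 libraries, for 6 abundant actins (points) and the 5 nearest other transcripts of 2 of them (dashes), with dsFactin libraries left of the vertical line. Cluster-8110.34823 and Cluster-8110.35523, which are 0.0809 apart, are below 0 in all dsFactin libraries and above 0 in all dsNC libraries, while the transcripts of the right panel are 0.0290 to 0.0932 apart from each other.

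Muscle partners of actin were lower in dsFactin for most of their members, and no test compared them with other lists. The list, drawn by words such as myosin heavy chain of muscle, troponin, tropomyosin, titin and paramyosin, held 153 clusters, of which 131 were tested. In limma 4 of them fell and 0 rose, beside 0.419% of all tested transcripts that fell and 0.0771% that rose. A titin-like transcript (Cluster-8110.32220), part of the elastic scaffold of the sarcomere, fell to 3.91, 4.26 and 5.68 FPKM in dsFactin libraries 1, 2 and 3, against 28.9, 27.4 and 22.9 FPKM in dsNC, with an adjusted p = 0.00983. Troponin C (Cluster-8110.35522), the calcium sensor of the thin filament, fell to 466 ± 54.6 FPKM in dsFactin, against 1014 ± 107 FPKM in dsNC (adjusted p = 0.0467). Troponin T (Cluster-8110.35305), which joins troponin to tropomyosin, fell to 575 ± 77.0 FPKM in dsFactin, against 1277 ± 148 FPKM in dsNC (adjusted p = 0.0493). A myosin light chain kinase-like transcript (Cluster-8110.36003) fell to 26.7 ± 3.56 FPKM in dsFactin, against 62.5 ± 8.55 FPKM in dsNC (adjusted p = 0.0483).

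Of the 131 muscle partners tested, 118 were lower and 13 higher in dsFactin by sign, 69 lay wholly below dsNC and 4 wholly above, and the median log2 difference was -0.88. Over all tested transcripts 21.5% lay wholly below and 5.98% wholly above, with a median of -0.27. Another troponin C, Cluster-8110.30915, was among the higher, at 72.4, 65.8 and 77.7 FPKM in dsFactin and 49.0, 52.6 and 56.4 FPKM in dsNC (adjusted p = 0.131, limma). The 4 calls were not stable to the libraries used. Without dsFactin library 2 there were 22 falls, where 1535 of all 46820 tested transcripts fell. Without dsFactin library 1 there was 1, where 52 of 48101 fell. Without dsFactin library 3 there were 4, of which 1 was shared, where 86 of 49507 fell. With any single dsNC library left out there were 0, where 5 to 18 of all tested fell. Median-ratio rescaling left 1 fall, where 93 of all 52164 fell, and a median of -0.62. With limma-voom there were 28 falls, where 1.65% of all fell. Over the 123 tested clusters of the list without a Drosophila nucleotide match the median was -0.80.

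Set against the summed muscle partners, the A3a-like transcript overlapped between the groups and the most abundant clone 403 actin did not. The muscle partners without Drosophila matches summed to 8082, 8084 and 10303 FPKM in dsFactin libraries 1, 2 and 3, against 14872, 17354 and 16631 FPKM in dsNC. The A3a-like transcript equalled 23.6, 28.7 and 31.3% of that sum in dsFactin and 29.9, 34.3 and 32.6% in dsNC, so the groups overlapped (exact permutation p = 0.2, adjusted p = 0.25). The Actin-87E-like transcript equalled 4.18, 4.92 and 5.41% in dsFactin and 5.92, 6.45 and 6.35% in dsNC, without overlap (exact permutation p = 0.1, adjusted p = 0.15). Cluster-8110.34480 equalled 37.3, 38.9 and 39.2% in dsFactin and 27.2, 25.0 and 25.1% in dsNC, the other way round (exact permutation p = 0.1, adjusted p = 0.15). In samples of this kind fewer muscle cells and less RNA per cell cannot be told apart.

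The proteins that build, cap and fold actin filaments held 0 transcripts that passed in limma or in limma-voom, and 10 with an unadjusted p under 0.05, which 19.3% of all tested transcripts reached. Among 8 tested binders of actin monomers the median log2 difference was -0.13, and an adenylyl cyclase-associated protein (Cluster-8110.30562), which helps recycle actin monomers, was at 114 ± 6.24 FPKM in dsFactin and 91.9 ± 4.10 FPKM in dsNC (adjusted p = 0.187, limma). Among 26 nucleation and elongation factors, the group of the formins and the Arp2/3 complex, the median was -0.08. Formin-2 (Cluster-8110.32278) differed by 0.56 and inverted formin-2 (Cluster-8110.36973) by -0.55. Among 13 capping and severing transcripts the median was -0.24, and among 25 chaperonin subunits and other folding factors -0.09. The list of 14 actin-related proteins had a median of 0.0095. After median-ratio rescaling the medians of these 5 lists were between 0.050 and 0.31.

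Crosslinkers and membrane linkers had a median of -0.33 over 57 tested and -0.14 after median-ratio rescaling, near the -0.27 and -0.09 of all tested transcripts. In limma 0 passed and 18 had an unadjusted p under 0.05, where 19.3% of all transcripts did. With limma-voom there were 3 falls, where 1.65% of all fell. A dystrophin-like transcript (Cluster-8110.39718), a link between cortical actin and the membrane of muscle, had 5.27, 6.52 and 5.64 FPKM in dsFactin, against 12.1, 14.6 and 12.0 FPKM in dsNC (adjusted p = 0.0576, limma). Coronin-7 (Cluster-8110.36404) had 48.8 ± 4.33 FPKM in dsFactin and 35.5 ± 1.40 FPKM in dsNC (adjusted p = 0.127, limma). All 6 transcripts of factors that drive actin gene transcription were negative by sign as deposited, with a median of -0.37, and 0 passed in limma or limma-voom (2 at an unadjusted p under 0.05). The MEF2-like factor (Cluster-8110.33316), a regulator of muscle genes, had 5.44, 6.08 and 3.52 FPKM in dsFactin, against 8.27, 8.93 and 7.29 FPKM in dsNC (adjusted p = 0.193, limma). Non-muscle myosins, 25 tested, had a median of -0.49, and 0 passed in limma or limma-voom (7 at an unadjusted p under 0.05).

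Markers of other tissues and cells are given beside the actins, and their part in the actin values was not tested. Hemocyanin, the oxygen carrier of spider haemolymph, was negative for all 45 tested transcripts, with summed levels of 43749 to 53999 FPKM in dsFactin and 71802 to 88729 FPKM in dsNC. In limma 0 of these passed and 27 had an unadjusted p under 0.05, and limma-voom gave 12 falls. Over all tested transcripts 0.419% fell and 0.0771% rose in limma, and 19.3% had an unadjusted p under 0.05. With limma-voom 1.65% of all fell and 0.613% rose. Yolk transcripts summed to 14565 to 25864 FPKM in dsFactin and 9960.18 to 14178 FPKM in dsNC. Of 37 tested, 1 rose and 1 fell in limma: vitellogenin-1 (Cluster-8110.3985) had 809, 507 and 227 FPKM in dsFactin and 0.18 to 0.32 FPKM in dsNC (adjusted p = 0.00209). The other, a 374-base vitellogenin-2 piece (Cluster-14054.0), was listed at 0 in dsFactin and at 2.83 to 4.34 FPKM in dsNC (adjusted p = 0.0314). With limma-voom 5 yolk transcripts rose and 0 fell. Sperm axoneme transcripts summed to 198 to 474 FPKM in dsFactin and 203 to 250.4 FPKM in dsNC, so the groups overlapped (exact permutation p = 0.7). Of 59 tested, 50 were negative and 9 positive by sign, and 2 fell in limma-voom and 1 in limma. The latter was an outer dense fiber protein (Cluster-6116.0) with a Drosophila match, listed at 0 in dsFactin and at 7.06 to 13.2 FPKM in dsNC. An axonemal dynein heavy chain 7 (Cluster-8110.34192) went the other way without overlap. It had 135, 96.6 and 349.7 FPKM in dsFactin libraries 1, 2 and 3, against 47.5, 48.0 and 42.1 FPKM in dsNC (adjusted p = 0.111, limma).

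Drosophila-named clusters were the other material to set beside the actins, since 2 of the 10 had a Drosophila nucleotide match. Of 229 such clusters tested outside the actins 1 fell in limma, Cluster-6116.0, and 10 fell in limma-voom, where 0.419% and 1.65% of all tested transcripts fell. An unadjusted p under 0.05 was reached by 174, 187 lay wholly below dsNC, and the median log2 difference was -1.91. Of all tested transcripts 19.3% reached that p in limma and 21.5% lay wholly below. The sum of clusters naming Drosophila in both matches was 24.1 times as high in dsNC library 3 as in dsNC library 1. Over the same libraries the Actin-87E-like transcript differed by a ratio of 1.20 and Cluster-8110.53255 by 0.711. The plot of both beside that sum shows these values. Between the groups, that sum and both actins had lower means in dsFactin, and the part of Drosophila-matched material in these 2 actins was not tested. Neither actin is part of that sum, as their best protein matches name other organisms, for the Actin-87E-like transcript another fly. Another Drosophila-matched actin piece of 368 bases, Cluster-8110.46145, which is not among the 10, was listed at 0 in 5 libraries and stood at 3.74 FPKM in dsNC library 3.

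**Figure D5:**
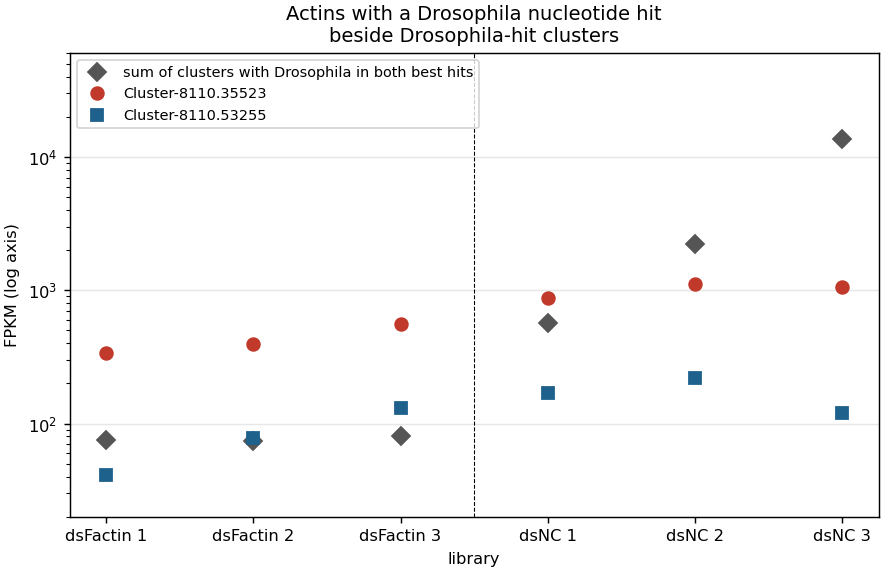
FPKM on a log axis of Cluster-8110.35523 (circles) and Cluster-8110.53255 (squares) in each library, beside the summed FPKM of the 2119 clusters that name Drosophila in both best matches (diamonds). Within dsNC the diamonds run between 565 and 13611 FPKM, while the circles stay between 879.85 and 1119 FPKM.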

How the data were processed

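RNA sequencing of samples labelled Individual was deposited as a table of FPKM values per cluster, made by the authors and rounded to 2 decimals, with best matches to protein and nucleotide databases. Per the labels' protocols, RNA came from an RNeasy kit and libraries from a SMARTER kit. For aligner, assembler and counter, names were not given in the sources used here. A mouse build, mm10, is named in the submitters' processing notes, while the clusters carry no coordinates, so no positions or sequences are given. All 6 library columns were used, matched by title.

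The 53182 transcripts that reached 0.5 FPKM in 3 or more libraries were fitted as log2(FPKM + 1) in limma 3.58.1 (R 4.3.3) with an intensity trend, two-sided, with Benjamini-Hochberg adjustment at 0.05. The pseudocount understates changes of low transcripts. Sums, shares and ratios were compared by exact permutation of the 6 libraries (Python 3.11.15, scipy 1.17.1). Depth was recovered from the steps of low FPKM values, 99.2 to 99.6% of which lay within 0.1 of a whole fragment for transcripts of 600 to 1200 bases. The fit was tested on simulated data.

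The members and the 13 word-defined lists were chosen with earlier results of these data known, and words take in strays such as attractin. Named were all members, every list transcript that passed, the smallest adjusted p of each direction per list at a mean of at least 1 FPKM, and the 5 nearest profiles to each of the most abundant pair. Not every transcript the rule allows is described.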

Additional observations from a re-analysis of the deposited data

How the results depend on the processing

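The count of actins past the threshold was 0 as reported, 2 among transcripts with a mean of at least 5 FPKM, 1 with array weights and 2 with limma-voom on recovered fragments. In those settings 4.15, 1.01 and 1.65% of all tested transcripts fell. It was 0 in the other 14 settings, with each library left out included. Of 166 values of single actins across 17 settings, 158 kept their direction and side of the threshold, 5 passed it (Actin-87E-like in 3 settings, A3a-like in 2) and 3 reversed. The reversals were Cluster-8110.34480 at 0.015 and Cluster-8110.23246 at 0.15 after median-ratio rescaling, and Cluster-8110.23246 at 0.15 with quantile normalization; the cause was not tested. Cluster-8110.4076 had no value in 4 settings. With a library left out, the summed actin difference ran between -0.61 and -0.38 (log2), the A3a-like share difference between -14.9 and -12.1 percentage points, and the log2 ratio of the most abundant pair between -0.89 and -0.70.

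Same-numbered libraries did not deviate together: the correlations of their deviations over 12897 transcripts were 0.22, -0.11 and -0.22, so the numbers were not taken as pairs. With the replicate block 0 actins passed, as did 0 muscle partners, and 1 transcript rose and 16 fell of all tested; for sums and shares the smallest p with that block is 0.25. Sharing of reads between actins, and counts of 6 to 31 fragments for Cluster-8110.4076, limit single values. Sums without the Drosophila-matched actins were chosen after seeing the data.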

Other observations

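Further clusters touched actin by annotation without being counted among the 10. Of the 3 others in the orthology group of actins, alpha-centractin (Cluster-8110.35582), a subunit of the dynein-activating complex dynactin, was at 49.1 ± 2.41 FPKM in dsFactin and 52.6 ± 3.29 FPKM in dsNC (SD, n = 3 each). The actin-related protein 10-like transcript (Cluster-8110.40381), also of dynactin, was at 21.5 ± 3.34 FPKM in dsFactin and 23.4 ± 0.899 FPKM in dsNC. Another 5 clusters matched an actin mRNA by nucleotide sequence only. The most abundant of these (Cluster-8110.33528), whose match is a beta-actin mRNA of the fishing spider Dolomedes, had 325, 287 and 413 FPKM in dsFactin and 361, 377 and 352 FPKM in dsNC. Its groups overlapped and its log2 difference was -0.10 ± 0.16 (SE, adjusted p = 0.740, limma).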
